A study of Homo sapiens with 8 samples.

Results

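A stretch of 4 Mb on the short arm of chromosome 6, chr6:26000000-30000000 in the hg19 build, held 233 of the 24078 ChIP-seq peaks in the 7 deposited lists. A peak was counted as a member when its centre lay in this window. The window was chosen by the density of PANC1 ETS1 peaks in it, so the number of PANC1 peaks there and their close spacing are given as a description and support nothing further. ChIP-seq (chromatin immunoprecipitation followed by sequencing) recovers DNA bound by a factor, and a peak is an interval in which that DNA piles up.

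The study gave 1 sample of ETS1 from PANC1, a pancreatic cancer cell line, and 1 each of ETS1, GABPA, JUND, ELK4 and ELF1 from DU145, a prostate cancer cell line. No allele, drug or time course is named in the labels, and the growth notes are the same for all samples. They describe DU145 cells, PANC1 samples included, and mention puromycin for selected cells without saying which were selected. Both lines were treated with the same catalogue antibody against ETS1, in different lots. The 2 input samples were not used here. DU145 ETS1 has 2 lists, called the first and the second below, which were kept apart and count as 1 sample. The labels do not tell whether the second comes from a second immunoprecipitation or from a second peak call on the same one, so an overlap between them may or may not be that of replicates. No other factor has more than 1 list, and no test between samples was made, and each interval below is a 95% Clopper-Pearson interval of counting error among peaks of 1 list. The lists hold positions only, so depth, peak height and the identity of the cell lines could not be checked.

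ETS1, GABPA, ELK4 and ELF1 belong to the ETS family, whose DNA-binding domain reads a GGAA core, most strongly as CCGGAAGT. GABPA is known for binding promoters of housekeeping genes, ELK4 for acting beside serum response factor, and JUND for binding AP-1 sites (TGANTCA, where N is any base) with a FOS or JUN partner. The stretch is known for the main cluster of replication-dependent histone genes, which are transcribed in S phase to supply chromatin, and for a large cluster of transfer RNA genes, which RNA polymerase III transcribes from control boxes inside the genes. Zinc finger, butyrophilin and olfactory receptor genes lie among and after them.

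The gene content was read from RefSeq by name and order alone (GRCh38.p14), since no annotation of the build of the peaks was at hand. From the linker histone gene H1-1 to the olfactory receptor gene OR2H2, RefSeq lists 389 genes. Among them are 53 of the 55 protein-coding core and linker histone genes of chromosome 6 and 144 of its 155 transfer RNA genes, with 14 zinc finger, 6 butyrophilin and 16 olfactory receptor genes. Of the transfer RNA genes, 98 come before H2BC17, the last histone gene in this order, and 46 after it, while 11 of the 14 zinc finger genes come after it. The borders of the window were not placed on this order, and no peak was assigned to a gene.

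Promoters of the histone and zinc finger genes of this neighbourhood differ in how often they hold the letters ETS factors read. RefSeq gives promoters of 300 bases for 48 of the 53 histone genes (52 gene starts) and for 11 of the 14 zinc finger genes (19 starts). Either strand was searched. CCGGAAGT was present at 1 of 52 histone gene starts (1.92%) and at 5 of 19 zinc finger gene starts (26.3%), against 4.14% of all 35116 RefSeq gene starts. These 5 starts belong to 4 genes, and starts of the same gene are not independent. No difference between the kinds of gene was tested. The shorter CGGAAG, which is part of CCGGAAGT, was at 7.69% of histone and 47.4% of zinc finger starts, against 19.5% of all. CCAAT was at 86.5% of histone starts and TATAAA at 65.4%, against 34.6% and 11.5% of all. The AP-1 letters TGANTCA were at 1 histone start (1.92%) and 2 zinc finger starts (10.5%), against 7.71% of all. Stretches of 120 bases let the 2 kinds be seen side by side. They come from H1-1, the first histone gene in this order with CCAAT and TATAAA and without CGGAAG, from the 1 histone gene with CCGGAAGT, and from the 4 zinc finger genes with it. They run 5′ to 3′ on the strand of each gene, from RefSeq GRCh38.p14, and capitals mark CCGGAAGT, CCAAT and TATAAA on either strand.
H1-1: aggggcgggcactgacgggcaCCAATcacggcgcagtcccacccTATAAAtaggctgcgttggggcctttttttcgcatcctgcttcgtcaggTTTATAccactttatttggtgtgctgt
H3C6: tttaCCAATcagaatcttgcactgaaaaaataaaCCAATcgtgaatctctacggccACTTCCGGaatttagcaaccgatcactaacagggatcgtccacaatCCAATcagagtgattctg
ZNF184: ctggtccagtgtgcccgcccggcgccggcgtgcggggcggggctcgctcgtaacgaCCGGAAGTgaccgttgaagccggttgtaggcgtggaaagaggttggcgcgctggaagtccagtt
ZKSCAN8: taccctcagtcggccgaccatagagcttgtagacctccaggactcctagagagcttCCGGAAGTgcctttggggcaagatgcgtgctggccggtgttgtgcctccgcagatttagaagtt
ZSCAN9: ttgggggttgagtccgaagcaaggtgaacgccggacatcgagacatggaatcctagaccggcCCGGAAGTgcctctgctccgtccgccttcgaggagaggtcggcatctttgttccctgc
ZKSCAN3: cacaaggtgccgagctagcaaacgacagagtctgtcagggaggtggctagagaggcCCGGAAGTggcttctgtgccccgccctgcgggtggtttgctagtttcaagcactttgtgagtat
The H1-1 sequence carries CCAAT and TATAAA close together before the gene start. In H3C6, a histone H3 gene, the ETS letters lie on the opposite strand between CCAAT boxes. The promoters of ZNF184, ZKSCAN8, ZSCAN9 and ZKSCAN3, all zinc finger genes, carry the ETS letters on the gene strand. A match describes letters in a window and shows no binding.

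Every list except ELF1 had a peak in the stretch, and PANC1 ETS1 placed by far the largest share of its list there. Its 73 members were 17.8% of its 409 peaks (14.3 to 21.9%) and 84.9% of its 86 chromosome 6 peaks. The DU145 ETS1 lists had 60 and 75 members, which were 0.601% of 9984 peaks (0.459 to 0.773%) in the first list and 0.806% of 9306 (0.634 to 1.01%) in the second. GABPA had 17 members (0.686% of 2478, 0.400 to 1.10%), JUND had 7 (0.535% of 1308, 0.215 to 1.10%) and ELK4 had 1 (0.297% of 337). ELF1 had 0 of 256, which allows a share of up to 1.17% at a floor of 3 counts and 1.43% by the Clopper-Pearson interval. In absolute number, PANC1 therefore had about as many ETS1 peaks here as DU145, from a list a small fraction as long. List lengths depend on depth and threshold, which are unknown, so the shares do not compare binding between the lines. With the window set to 25 to 31 Mb, JUND had 1.15% of its list there.

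The stretch was the densest 4 Mb in the PANC1 list and not in the DU145 ETS1 lists. The next densest 4 Mb of PANC1 held 17 peaks, on chromosome 19. The first and second DU145 ETS1 lists reached 122 and 109 peaks in 4 Mb of chromosome 11, GABPA reached 52 on chromosome 19 and JUND 31 on chromosome 11. On chromosome 6 outside the stretch, PANC1 had 13 peaks, against 454 and 446 in the DU145 ETS1 lists. The first PANC1 peak of chromosome 6 by position, chr6:26027183-26027680, is already a member, 27.4 kb inside the left border. The last member, chr6:28949632-28950115, lies 1050.1 kb inside the right border, and the next PANC1 peak, chr6:30584642-30585137, lies 584.9 kb beyond it. The DU145 ETS1 lists run across both borders. The peaks nearest to the left border were 7.3 kb outside and 21.3 kb inside it in the first list and 7.2 and 20.9 kb in the second, and those nearest to the right border were 66.5 kb inside and 28.9 kb outside in the first, and chr6:29933601-29934087 and chr6:30028768-30029265 in the second. GABPA, ELK4 and ELF1 each had a peak 34.9 kb beyond the right border. The JUND peaks nearest to the window lay 5122.1 kb before it and 650.1 kb after it.

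**Figure D1:**
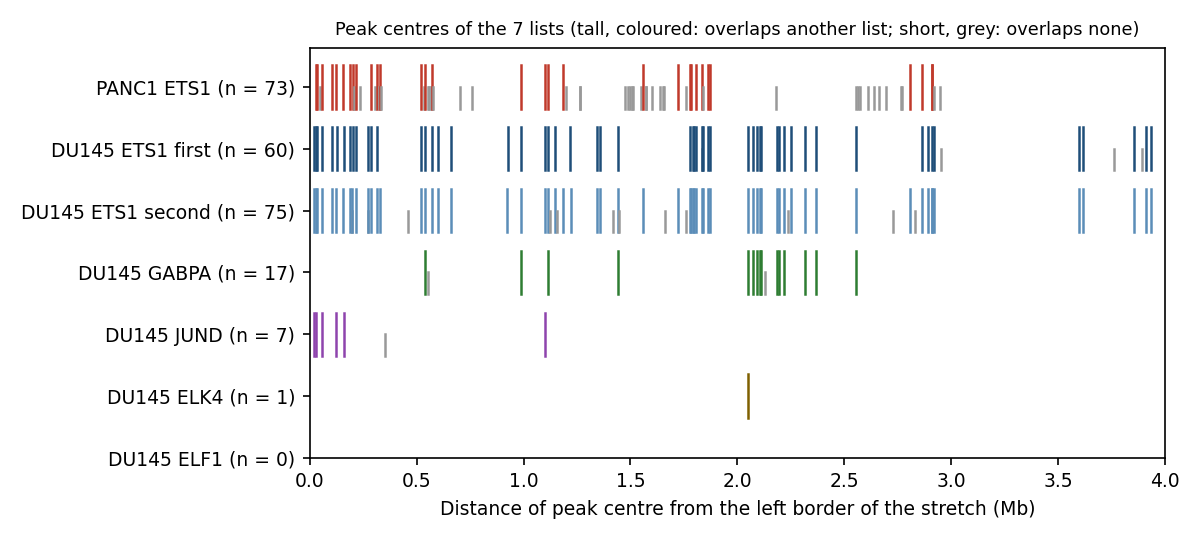
Centres of the 233 member peaks along the stretch, as the distance in Mb from its left border, with 1 row per list. Tall coloured marks are peaks that overlap a peak of another list by at least 1 bp and short grey marks overlap none: 42 of the 73 PANC1 marks are grey, against 4 of 60 and 12 of 75 DU145 ETS1 marks.

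Members were short windows in most lists. PANC1 members measured 450 to 501 bp with a median of 495 bp, against a median of 497 bp (271 to 501 bp) for PANC1 peaks elsewhere. Among the narrower PANC1 peaks 51 of 205 lay in the stretch (24.9%), and among the wider 22 of 204 (10.8%). PANC1 widths are nearly uniform, and members of 497 bp fell on both sides of this cut. Peaks of equal width were divided by their order in the list. PANC1 members stand late in that order, at 71.4 to 91.7% of its length, so most members of 497 bp were placed among the narrower peaks. The contrast between these shares therefore does not show that the share in the stretch depends on width. Members of the second DU145 ETS1 list measured 461 to 501 bp and GABPA members 481 to 501 bp. The first DU145 ETS1 list and JUND hold regions of varying length. Their members had medians of 1223 bp (498 to 4325 bp) and 924 bp (573 to 1655 bp), against 1173 and 696 bp elsewhere. The 5 widest members all belonged to the first DU145 ETS1 list, and each held 1 PANC1 peak. They were chr6:26122505-26126829 (4325 bp), chr6:27774815-27778666 (3852 bp), chr6:26155922-26159436 (3515 bp), chr6:26031168-26034357 (3190 bp) and chr6:27859930-27863046 (3117 bp).

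Over all members, PANC1 ETS1 peaks stood closer together than those of DU145. The order was turned among the wider peaks of each list, a split that kept a smaller part of the PANC1 members. The median distance between neighbouring centres was 16.0 kb in PANC1 (2.82 to 376 kb, 72 gaps), 27.3 kb in the first DU145 ETS1 list (1.87 to 648 kb, 59 gaps) and 24.1 kb in the second (1.58 to 680 kb, 74 gaps). Elsewhere on chromosome 6 the medians were 2925.8 kb in PANC1 (12 gaps), 97.6 kb in the first and 94.8 kb in the second DU145 list. All 3 lists were thus tighter inside the stretch than outside it on this chromosome. GABPA members had a median gap of 38.5 kb, against 464 kb elsewhere on the chromosome, and JUND members 50.6 kb, against 587 kb. Gaps of 10 kb or less made up 34.7% of PANC1 gaps (25 of 72), 16.9% in the first and 23.0% in the second DU145 ETS1 list, against 10.5%, 10.4% and 11.1% elsewhere in the genome. Among the wider peaks of each list the median gap was 58.3 kb in PANC1, 38.4 kb in the first and 34.3 kb in the second DU145 ETS1 list. This split kept 22 of 73 members in PANC1, 31 of 60 in the first and 39 of 75 in the second DU145 list. Equal widths were divided by order in the list, so part of the PANC1 loss follows from that order. Thinning a list lengthens its gaps, so the turned order does not show that wider PANC1 peaks stand farther apart.

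The closest PANC1 neighbours were chr6:26327532-26328022 and chr6:26330359-26330840, and the widest PANC1 gap ran between chr6:28180525-28181012 and chr6:28556994-28557491. In the first DU145 ETS1 list the closest pair was chr6:27832695-27833708 and chr6:27834267-27835871, and in the second it was chr6:26271328-26271812 and chr6:26272905-26273401. Both DU145 lists had their widest gap on the left of chr6:29600525-29601351 (first) and chr6:29600794-29601291 (second), beginning after chr6:28952824-28953706 (first) and chr6:28920963-28921458 (second). With neighbours up to 10 kb apart joined, the 73 PANC1 peaks formed 48 runs. The longest run held 5 peaks over 25.3 kb, chr6:26305532-26330840, and 2 of the 5 overlapped a DU145 ETS1 peak of either list. The next longest held 4 peaks over 22.7 kb, from 27551015 to 27573695, of which 1 did. The second DU145 list also had a longest run of 5 peaks, chr6:27777750-27805827, while the first had 3, chr6:26020190-26034357.

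**Figure D2:**
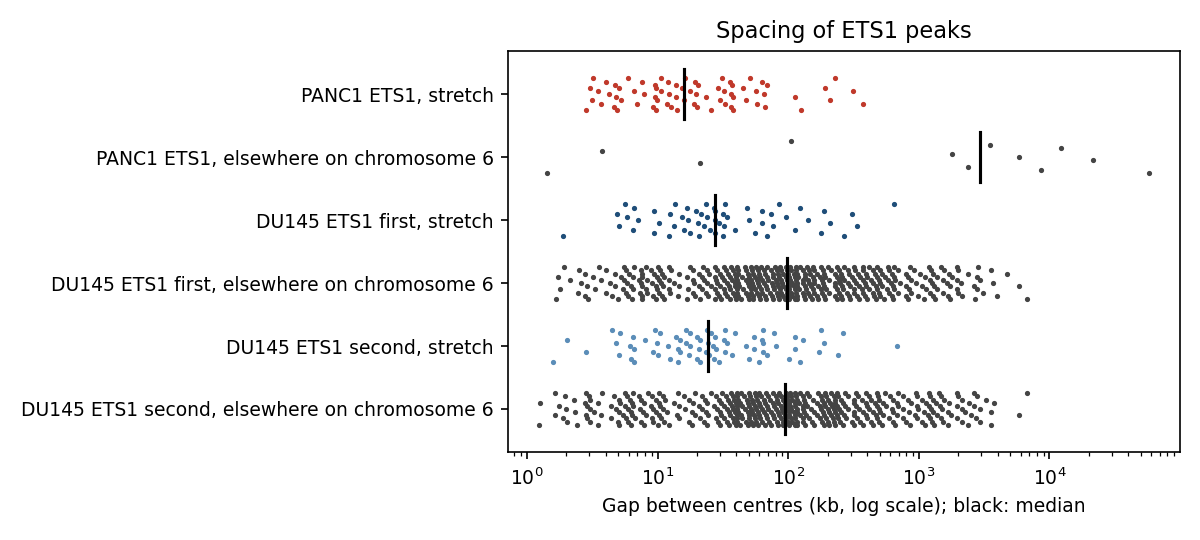
Distance between neighbouring peak centres (kb, log scale) for the ETS1 lists, in the stretch and elsewhere on chromosome 6. Each dot is 1 gap and black lines are medians, which are 16.0, 27.3 and 24.1 kb in the stretch for PANC1 and the first and second DU145 lists, against 2925.8, 97.6 and 94.8 kb elsewhere.

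Most PANC1 peaks of the stretch did not coincide with ETS1 in DU145, whereas most PANC1 peaks elsewhere did. Regions with peaks of both DU145 ETS1 lists, of which the stretch had 56, were overlapped by 24 of 73 PANC1 members (32.9%, 22.3 to 44.9%), against 279 of 336 PANC1 peaks elsewhere (83.0%, 78.6 to 86.9%) and 74.1% of the whole PANC1 list. The first DU145 list alone was met by 32.9% and the second by 37.0% of members, against 75.6% and 70.7% of the whole list. Either list was met by 31 members (42.5%), against 79.7% of the whole list, so 42 members met neither. With centres within 200 bp required, 15.1% of members met a DU145 region, against 44.6% of PANC1 peaks elsewhere, and among the wider peaks of each list 31.8% did, against 54.4%. These are peaks of 1 sample, the low share was known when the stretch was proposed, and no test of it was made.

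The PANC1 members that missed DU145 ETS1 lay at much the same raw distances from it as the PANC1 peaks that missed it elsewhere. Measured between edges, 5 of the 42 lay within 2000 bp of a DU145 ETS1 peak, 14 lay farther but within 10000 bp and 23 lay beyond that, against 6, 11 and 24 of 41 elsewhere. The nearest of the 5 were chr6:27840909-27841406, 449 bp from a DU145 peak, and chr6:27758892-27759358, 814 bp away. For the 42 members outside DU145 peaks the median distance was 14.6 kb and the largest 98.2 kb, at chr6:26758460-26758950. For the 41 elsewhere the median was 17.8 kb and the largest 485 kb. DU145 ETS1 peaks stand closer together in the stretch. Their median gaps were 27.3 kb (first list) and 24.1 kb (second), against 75.3 and 79.0 kb elsewhere in the genome. Similar raw distances are thus not similar nearness, and distance relative to local spacing was not tested. Where PANC1 windows did overlap windows of the second DU145 list, the centres were a median of 126 bp apart (5 to 478 bp, 27 peaks), close to the 120 bp found elsewhere (262 peaks).

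**Figure D3:**
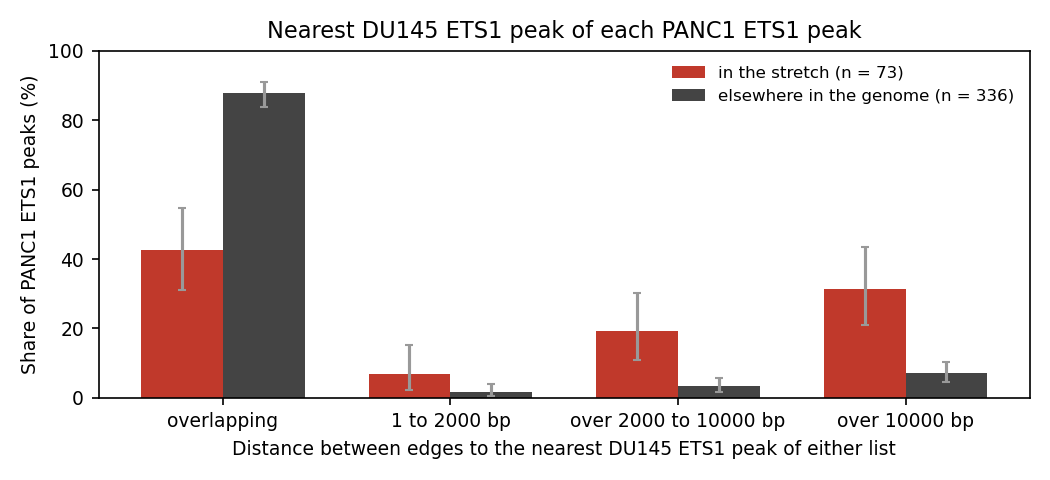
Share of PANC1 ETS1 peaks (%) by distance between edges to the nearest DU145 ETS1 peak of either list, for the 73 peaks in the stretch and the 336 elsewhere. Bars start at 0 and error bars are 95% Clopper-Pearson intervals: overlapping peaks are 42.5% in the stretch and 87.8% elsewhere.

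Read from DU145, the same stretch looked different. Of its 56 DU145 ETS1 regions, 24 held a PANC1 peak (42.9%, 29.7 to 56.8%), against 3.35% of 8127 regions elsewhere and 3.62% of all regions. This high share follows in part from the rule, since the window was picked for its many PANC1 peaks. With centres within 200 bp it was 19.6%. Members of the first DU145 list that held a PANC1 peak had a median width of 1921 bp (24 members), against 1037 bp for the other 36. The same contrast elsewhere was 1775 bp (278 peaks) against 1164 bp (9646 peaks). A wide region meets a PANC1 window more easily, and the part of width in the overlap was not tested.

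The DU145 ETS1 lists themselves overlapped unevenly here. Of the first list, 56 of 60 members overlapped the second (93.3%, 83.8 to 98.2%), against 82.0% over the whole list. Of the second list, 56 of 75 overlapped the first (74.7%, 63.3 to 84.0%), against 88.4% over the whole list. The 4 members of the first list without the second were chr6:27832695-27833708, chr6:28952824-28953706, chr6:29760036-29760549 and chr6:29894589-29895086. Of the 19 members of the second list without the first, 7 overlapped a PANC1 peak and 12 overlapped nothing. Overlap with PANC1 here follows in part from picking the window for its many PANC1 peaks. The same count was not made elsewhere, so the 7 lend no support to peaks of the second list alone. With centres within 200 bp the shares were 58.3% and 46.7%.

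Sharing was uneven along the stretch, and the steps of 0.5 Mb showed different partners. Between 26 and 26.5 Mb, 11 of 13 DU145 ETS1 regions held a PANC1 peak, 5 held JUND and 0 held GABPA. Between 28 and 28.5 Mb, 0 of 11 held a PANC1 peak or JUND and 10 held GABPA. Of all DU145 ETS1 regions in the genome, 3.62% held a PANC1 peak, 28.1% GABPA and 4.89% JUND. At so small a JUND share, 0 of 11 does not show that JUND is lacking there. PANC1 itself had 18 peaks between 26 and 26.5 Mb and 1 between 28 and 28.5 Mb. Between 27.5 and 28 Mb PANC1 had its largest number, 20 peaks, of which 5 were at a DU145 ETS1 region and 15 were not, and neither GABPA nor JUND had a peak. Between 28.5 and 29 Mb it had 15, of which 13 were not at such a region. No list had a peak between 29 and 29.5 Mb, and from 29.5 to 30 Mb 5 DU145 ETS1 regions stood without any other factor or PANC1. The steps were counted on the same positions that defined the stretch, so they describe its layout.

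**Figure D4:**
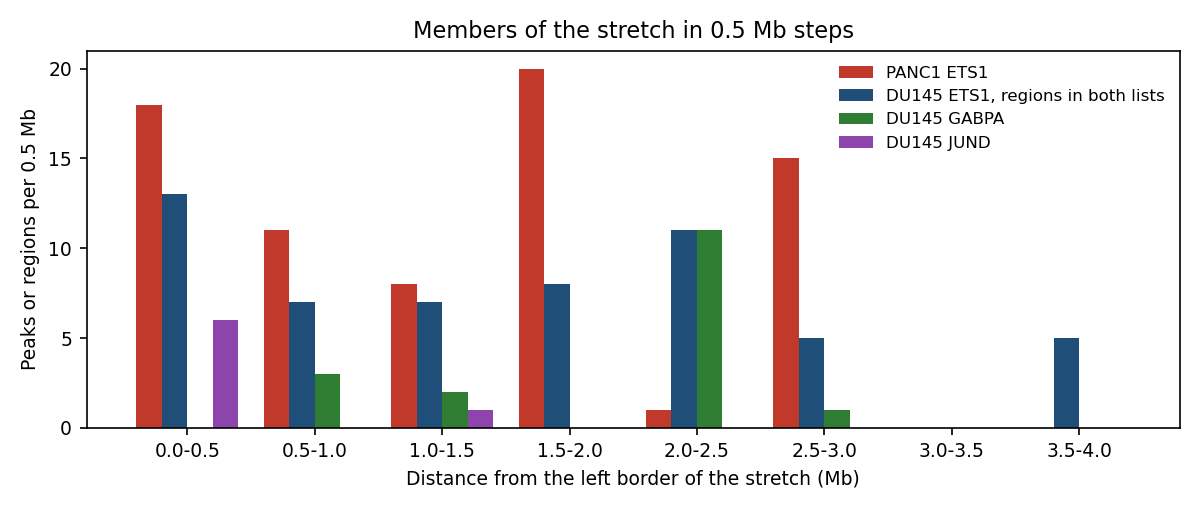
Number of PANC1 ETS1 peaks, DU145 ETS1 regions present in both lists, GABPA peaks and JUND peaks in each 0.5 Mb step, by distance in Mb from the left border of the stretch. PANC1 has 18, 11, 8, 20, 1 and 15 peaks in the first 6 steps and 0 after them, while 11 of the 17 GABPA peaks fall in the fifth step and 6 of the 7 JUND peaks in the first.

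Merging members that overlap gave 124 sites. PANC1 alone held 42 of them (33.9%), PANC1 and DU145 together 31 and DU145 alone 51 (41.1%). With sites under 5 kb apart merged, 25 held PANC1 alone. No site held more than 1 PANC1 peak. The sites came in series. The longest series of neighbouring sites with PANC1 alone had 7 sites over 140 kb, from 28556994 to 28697459, and another 2 had 6 sites each, over 78.1 kb from 27473380 to 27551475 and over 86.2 kb from 27570170 to 27656415. The longest series held by both lines had 5 sites, chr6:26055007-26189629, of which 3 also had JUND. With DU145 alone there were 8 sites in a row from 28186229 to 28555583, of which 6 had GABPA, and 8 from 28952824 to 29934256 with ETS1 only. The first of these DU145 series ends 1410 bp before the 7 PANC1 sites begin.

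Sites with 3 of the 6 samples numbered 9, and none had more. Of these, 5 held PANC1 ETS1, DU145 ETS1 and JUND. They were chr6:26026159-26028193, chr6:26055007-26057366, chr6:26122505-26126829, chr6:26155922-26159436 and chr6:27099536-27102139. At chr6:26155922-26159436 the PANC1 and JUND peaks lay in the same DU145 ETS1 region without touching each other. A further 3 held PANC1 ETS1, DU145 ETS1 and GABPA, at chr6:26537647-26539166, chr6:26987351-26988654 and chr6:27113148-27115692. In 2 of these 3, the PANC1 and GABPA peaks lay in the same DU145 ETS1 region without touching each other. The last was held by DU145 ETS1, GABPA and ELK4, at chr6:28047680-28049550, and it contains the only ELK4 member, chr6:28048492-28048988. No site had JUND together with GABPA. Of the whole GABPA list 2.42% met JUND. A count of 0 of 17 members allows a share of up to 17.6% at a floor of 3 counts and 19.5% by the Clopper-Pearson interval. The absence therefore shows no exclusion between these factors.

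GABPA members lay almost entirely on ETS1 of the same cell line, as did the GABPA list as a whole. Of 17, 15 overlapped a DU145 ETS1 region (88.2%, 63.6 to 98.5%), against 93.1% of the whole GABPA list, and 30% did among the wider peaks of each list (3 of 10). That split shortens both DU145 ETS1 lists too, and GABPA widths are nearly uniform. The 30% therefore does not show that wider GABPA peaks seldom lie on ETS1. Centres of GABPA windows and windows of the second ETS1 list lay a median of 24.2 bp apart (14 peaks), against 72.0 bp elsewhere (2271 peaks). The GABPA members that overlapped no DU145 ETS1 region were chr6:26550723-26551204 and chr6:28129254-28129734. The largest group was a row of 11 peaks from 28048485 to 28367723, namely chr6:28048485-28048985, chr6:28072268-28072751, chr6:28092248-28092746, chr6:28104372-28104869, chr6:28109493-28109988, chr6:28129254-28129734, chr6:28186482-28186982, chr6:28192791-28193290, chr6:28219821-28220309, chr6:28317338-28317835 and chr6:28367238-28367723. In this row PANC1 had no overlapping peak. Over the whole stretch 1 GABPA peak, chr6:26987735-26988232, overlapped PANC1 (5.88%, 0.149 to 28.7%), against 2.54% of the whole list. Conversely 1 of 73 PANC1 members met GABPA (1.37%, 0.0347 to 7.40%), against 62 of 336 elsewhere (18.5%, 14.4 to 23.0%) and 15.4% of the whole PANC1 list. The difference between members and the rest was not tested. Of DU145 ETS1 regions in the stretch, 26.8% held GABPA (15 of 56), against 28.1% of all regions. By PANC1, GABPA was at 3 of 24 regions with a PANC1 peak (12.5%, 2.66 to 32.4%) and at 12 of 32 without (37.5%, 21.1 to 56.3%). These intervals overlap. Elsewhere the shares were 25.7% and 28.2%.

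JUND members sat in the left part of the stretch, 6 of 7 in its first 0.5 Mb. Their positions were chr6:26020938-26021611, chr6:26026630-26027706, chr6:26055399-26056869, chr6:26123224-26124878, chr6:26157065-26157637, chr6:26351524-26352125 and chr6:27099833-27100756. All but chr6:26351524-26352125 overlapped a DU145 ETS1 region, which is 6 of 7 (85.7%, 42.1 to 99.6%), against 31.3% of the whole JUND list. With centres within 200 bp it was 3 of 7 (42.9%). PANC1 ETS1 overlapped 4 of the 7 JUND peaks (57.1%, 18.4 to 90.1%), against 3.98% of all JUND peaks. As for the DU145 ETS1 regions, this high share follows in part from picking the window for its many PANC1 peaks. From the side of PANC1 the overlap covered 4 of 73 members (5.48%, 1.51 to 13.4%), against 13.0% of its whole list. With centres within 200 bp it covered 0. JUND regions are wide, and no JUND centre was that near to a PANC1 centre. JUND was at 10.7% of the 56 DU145 ETS1 regions (4.03 to 21.9%), against 4.89% of all regions. It was at 5 of 24 regions with PANC1 (20.8%, 7.13 to 42.2%) and at 1 of 32 without (3.12%, 0.0791 to 16.2%), and elsewhere at 21.3% and 4.28%. The intervals in the stretch overlap here too, and the difference was not tested. PANC1 members met neither ELK4 nor ELF1. For either, 0 of 73 allows a share of up to 4.11% at a floor of 3 counts and 4.93% by the Clopper-Pearson interval. Both limits are above the 3.91% (ELK4) and 1.22% (ELF1) of the whole PANC1 list, so no difference was detectable with this number of peaks.

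**Figure D5:**
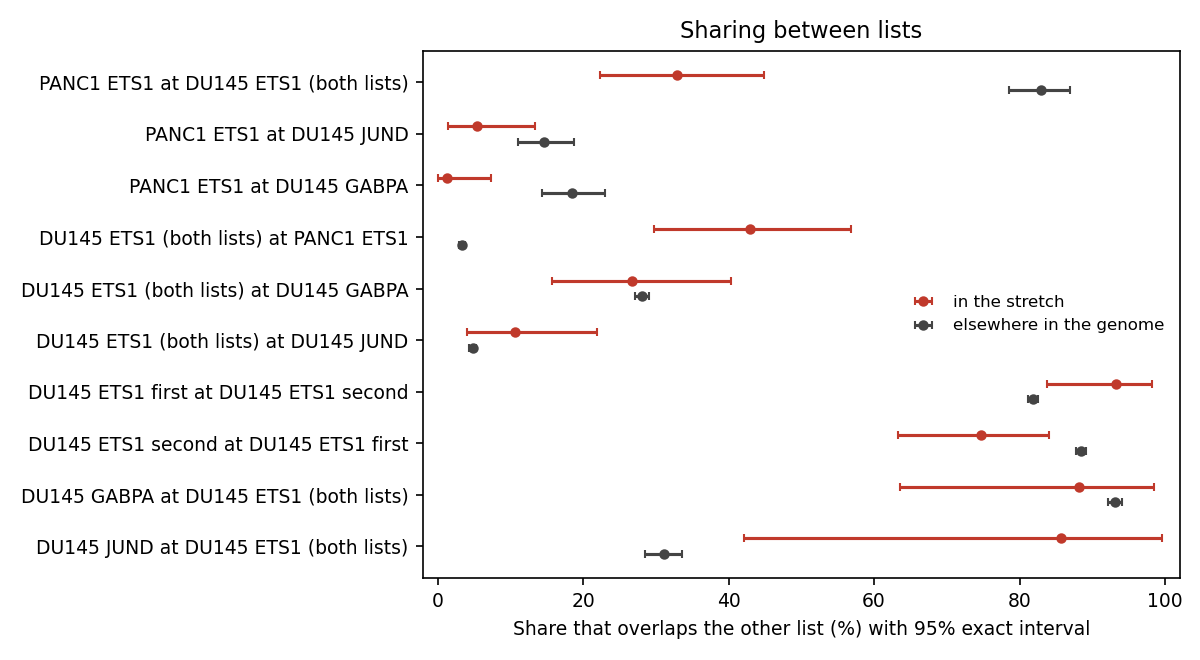
Share of the peaks or regions of 1 list that overlap another by at least 1 bp, in the stretch and elsewhere in the genome, in percent with 95% Clopper-Pearson intervals. PANC1 ETS1 at DU145 ETS1 is 32.9% in the stretch and 83.0% elsewhere, while GABPA at DU145 ETS1 is 88.2% and 93.1%.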

How the data were processed

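Peak positions were analysed for 6 immunoprecipitated samples, 1 per group, grouped by their titles. The deposited files give a chromosome, a start and an end per peak in hg19, per the labels, with no score or count, so their unit is other than any measured signal. Bowtie2 2.0.6 is named in the submitters' processing notes, with no role. Not given in the sources used here are how and at which threshold peaks were called, whether inputs were subtracted, how reads matching several places were handled and how deeply libraries were sequenced.

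Starts were counted from 1. A member had its centre in the window. Overlap meant at least 1 shared bp. Members overlapping each other were merged into sites, and DU145 ETS1 regions are merged intervals with a peak of each list. Members were counted in steps of 0.5 Mb, where 250 kb had been planned. Shares carry exact 95% intervals (counting error only), and a share of 0 carries a floor of 3 counts. Python 3.11.15, SciPy 1.17.1 and Matplotlib 3.10.9 were used. Overlap and merging were recovered in 3 of 3 simulated lists. No test was run. Sites named are those with at least 3 samples, all members of lists with 10 or fewer, the 5 widest, the closest and widest gaps, the longest runs and the peaks at the borders. The GABPA row, the members of the first DU145 ETS1 list without the second and the series of sites were named after their positions were seen. Members and lists were chosen with earlier results of these data known. Gene names and promoters come from RefSeq GRCh38.p14, so peaks were not joined to genes, and the planned counts of gene classes and sequence features at peaks were replaced by gene order and promoter letters.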

Additional observations from a re-analysis of the deposited data

How the results depend on the processing

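Of 101 recomputed values over 20 results, 81 kept within the interval of the value reported, or within 1.5 times of a count or gap, and 20 did not. The share of PANC1 members at DU145 ETS1 lay below that elsewhere in 9 of 9 alternatives. It was 15.1% with centres within 200 bp, and the share of DU145 regions with PANC1 was then 19.6%, that of the first ETS1 list at the second 58.3% and the reverse 46.7%. With the wider peaks of each list, PANC1 had 10.8% of its list in the stretch. Its median gap was 58.3 kb, above the 38.4 and 34.3 kb of the first and second DU145 ETS1 lists. This turns the order of the full lists, but the split kept 22 of 73 PANC1 members, against 31 of 60 and 39 of 75. Under this split the first ETS1 list met the second at 64.5% and the second met the first at 51.3%. GABPA met DU145 ETS1 at 30% and JUND met it at 100%. Widths in 5 lists are nearly uniform, and both lists of a pair are shortened under this split. PANC1 members of equal width fell on both sides of the cut. Equal widths were divided by order in the list, which put most PANC1 members at the cut width among the narrower peaks. The 22 members kept, the 10.8% and the 58.3 kb rest in part on that order. With the window at 25 to 31 Mb, 0.861% of the first and 1.12% of the second ETS1 list and 1.15% of JUND lay in it. Merging under 5 kb left 25 sites with PANC1 alone. No paired analysis was possible because each group has 1 sample. Alternatives for gene classes and for sequence at peaks were not run, as no genome of the build was at hand. Unknown depth limits every absence: a site missing from a list may lie under its threshold.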
